A study of Homo sapiens with 4 samples.

Results

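SWI/SNF complexes, also called BAF complexes, use ATP to slide and evict nucleosomes and so open DNA to transcription factors. Each complex holds a single ATPase, a core of scaffold subunits and an actin-related module, to which form-specific subunits are added. The canonical form (cBAF) carries an ARID1 subunit and a DPF subunit, PBAF carries ARID2, PBRM1, BRD7 and PHF10, and the non-canonical form (ncBAF) carries BRD9 with BICRA or BICRAL. Many positions can be filled by any of several paralogs, and in blood cells the make-up of the complex changes with differentiation. The genes described here are the 30 that encode these subunits. They are grouped by place in the complex, and not every form holds each core or module gene. They were chosen by name from the known composition, not by a measured value, though with earlier results of these data known. All 30 were found among the 58735 genes of the expression table.

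The expression table came from RNA sequencing of 4 libraries labelled as NB4, a human cell line from acute promyelocytic leukemia. The control group held 2 libraries whose labels give no treatment (no vehicle is named there), and the GNE-987 group held 2 libraries of cells given GNE-987. GNE-987 is a chimeric molecule that binds BET bromodomain proteins and brings them to the VHL ubiquitin ligase for degradation. The study's legends give the treatment as 25 nM for 24 h. The labels name no genetic change in either group, and all 4 libraries carry the label of a single line. No source says that the libraries of a group came from separate cultures, so p-values measure the spread between these libraries, which may be technical. Values for a group are given in the order replicate 1 and replicate 2.

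Expression was deposited as FPKM, fragments per length of exon, scaled to a total of reads in each library. The libraries held between 12362107 and 19447141 reads on genes, with fewer in both GNE-987 libraries. The totals by which the deposited values had been scaled were not these numbers. They were 1.18 and 1.15 times the reads on genes in control, and 0.676 and 0.686 times after GNE-987. Reads on mitochondrial genes made up 3.75% and 4.54% of reads in control and 15.7% and 15.3% after GNE-987. The labelled cell type was checked against 9 promyelocyte markers, whose summed level was 9.56 to 10.98 FPKM in the control group and 29.7 to 32.5 FPKM in the GNE-987 group. Of its defining markers, MPO was at most 0.0246 FPKM in control and 11.3 to 11.8 FPKM after GNE-987, CTSG was listed at 0 in all 4 libraries, and ELANE was listed at 0 in 3 of them. Of the other markers, SPI1 was at 7.52 and 5.68 FPKM in control, AZU1 at 2.07 and 2.10, CD33 at 0.836 and 0.915, and PRTN3 at 0.341 and 0.710, while CEBPE and CEBPA were at most 0.132. The 11 erythroid markers summed to 444 to 477 FPKM in the control group and 748 to 864 FPKM in the GNE-987 group, and the erythroid regulator GATA1 was at 122 to 124 FPKM in the control group and 12.5 to 15.1 FPKM in the GNE-987 group. Low defining markers beside high erythroid regulators go against the promyelocyte label, so the cells are called here by their library labels only. Summed levels of 3 megakaryocyte markers (0.472 to 0.485 and 3.84 to 4.90 FPKM), 3 T cell markers (17.01 to 18.1 and 21.2 to 21.8 FPKM) and 3 B cell markers (0.936 to 0.950 and 22.1 to 23.7 FPKM) are given for the control and GNE-987 groups in that order. The part of these differences in the results that follow was not tested. In bulk libraries, fewer cells of a type and less RNA per cell cannot be told apart.

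The comparison of the groups asked how the RNA of each SWI/SNF subunit changed with GNE-987. Of the 25 subunit genes that could be tested, 12 were lower and 1 was higher in the GNE-987 group. The lower genes were ARID2, DPF2, BCL7A, ARID1B, SMARCB1, DPF1, SS18, BICRAL, BRD9, ACTL6A, BICRA and SMARCC2, with fold changes between 5.16 and 2.25 downwards. The single higher gene was SS18L1, at 3.12 times its control level, although it was 0.20 lower on the log2 scale when the libraries were scaled to GAPDH. A gene was tested with limma on log2(FPKM + 0.1) if its mean over the 4 libraries was at least 0.5 FPKM, and called at an unadjusted P below 0.05 with a fold change above 2 or below 0.5. Over all 16668 genes tested, 24.9% were called lower and 33.6% were called higher. The 12 lower subunit genes are 48.0% of those tested. Of the 12, DPF1 and ARID1B passed the filter only through their control level, with means of 0.278 and 0.412 FPKM after GNE-987. Among the 10996 protein-coding genes tested, 31.7% were called lower and 2638 genes were called higher. The largest adjusted P value among the 13 called subunit genes was 0.0032 (limma, Benjamini-Hochberg).

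The scaling of the libraries bears on every direction given here. The median log2 fold change of all tested genes was 0.17 in the deposited values, and it fell by 0.74, 1.29 and 1.77 on the log2 scale when the libraries were scaled to reads on genes, to a common protein-coding total or to GAPDH. Set against that median, the middle subunit gene was at -1.17 on the log2 scale, with 21 of 25 genes below the median and 4 above it. Relative to the protein-coding median of -0.29, 19 subunit genes were below and 6 above. The control and GNE-987 libraries did not overlap for 23 of the 25 genes, against 89.1% of all tested genes.

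**Figure D1:**
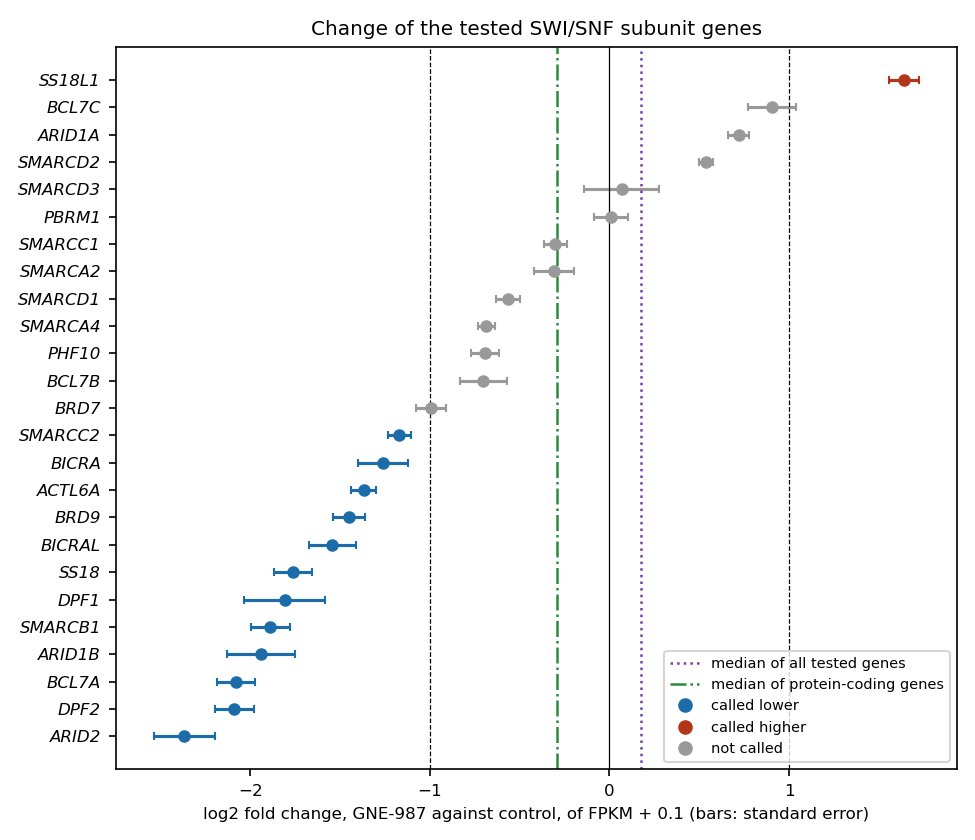
Points show the log2 fold change (GNE-987 against control, on FPKM + 0.1) of the 25 tested subunit genes, bars the standard error from limma, dashed lines a fold change of 2 and the dotted and dash-dotted lines the medians of all tested and of protein-coding genes. ARID2 lies lowest at -2.37 and SS18L1 highest at 1.64, which turned to -0.20 under scaling to GAPDH, and 12 genes lie beyond the lower dashed line.

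The ATPases were not among the called genes in the deposited scaling. SMARCA4 (BRG1), the main ATPase of these cells by level, was at 24.05 and 23.4 FPKM in control and 14.6 and 14.8 FPKM after GNE-987. SMARCA2 (BRM), its paralog, was at 3.48 and 3.75 FPKM and at 2.71 and 3.10 FPKM. Neither gene's groups overlapped, and both were lower after GNE-987 by less than the fold required. The log2 fold change of SMARCA4 was -0.69 ± 0.05 (SE, n = 2 per group; limma adjusted P = 0.000699) and that of SMARCA2 was -0.31 ± 0.11 (SE; limma adjusted P = 0.069). Set against the median of all tested genes, these were -0.86 and -0.48. Both were called lower under scaling to reads on genes (-1.46 for SMARCA4 and -1.06 for SMARCA2), to the protein-coding total (-2.03 and -1.62), to GAPDH (-2.53 and -2.10) and with limma-voom (-1.47 and -1.09). SMARCA4 held 87.3% and 86.2% of the ATPase FPKM in control and 84.3% and 82.7% after GNE-987.

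The genes grouped here as core subunits differed in their changes, also between paralogs. SMARCB1, the core subunit (also called SNF5 or INI1) that contacts the nucleosome and is lost in rhabdoid tumors, fell with GNE-987. The gene lies at chr22:23786931-23838009, plus strand, in hg38. It was at 5.28 and 4.74 FPKM in control and at 1.30 and 1.26 FPKM after GNE-987, a fold change of 3.70 downwards (log2 -1.89 ± 0.11 SE, limma adjusted P = 0.000487). These levels rest on 1731 to 2009 reads and on 179 to 184 reads. Of its annotated exon bases, 17.7% also lie in exons of DERL3 on the opposite strand, none of them coding bases of SMARCB1, and DERL3 itself was at most 0.693 FPKM.

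SMARCC1 and SMARCC2 are the paired scaffold subunits (BAF155 and BAF170) on which the complex is built. SMARCC2 fell from 16.0 and 16.9 FPKM in control to 7.07 and 7.40 FPKM after GNE-987 (log2 fold change -1.17 ± 0.06 SE, limma adjusted P = 0.000418). SMARCC1 was at 30.6 and 32.3 FPKM in control and 24.6 and 26.4 FPKM after GNE-987, a log2 fold change of -0.30 ± 0.06 that was not called. It was called lower at -1.07, -1.65, -2.15 and -1.08 under scaling to reads on genes, to the protein-coding total, to GAPDH and with limma-voom. SMARCC1 thus held 65.7% of the pair's FPKM in both control libraries and 77.7% and 78.1% after GNE-987. SMARCC2 shares 9.91% of its exon bases with other genes, most of them with MYL6 on the opposite strand, which was at 31.7 to 36.5 FPKM in the control group and 71.4 to 73.1 FPKM in the GNE-987 group.

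The SMARCD genes encode the interchangeable BAF60 subunits, which link the complex to transcription factors. SMARCD2, the BAF60 form needed for granulocyte development, had the highest FPKM of all 30 genes in every library, at 42.0 and 41.4 FPKM in control and 61.4 and 59.7 FPKM after GNE-987. Its log2 fold change of 0.54 ± 0.04 was below the fold required, and it turned to -0.24, -0.81, -1.31 and -0.07 when libraries were scaled to reads on genes, to the protein-coding total, to GAPDH or by quantile normalization. SMARCD1 was at 16.5 and 16.9 FPKM in control and 10.8 and 11.8 FPKM after GNE-987, a log2 fold change of -0.56 ± 0.07 that was not called, although it was at -1.34 to -2.40 and called lower under those 3 scalings and limma-voom. SMARCD3, the form best known from heart and brain, was close to the limit of testing. It was at 0.844 and 0.983 FPKM in control and 1.08 and 0.850 FPKM after GNE-987, and the groups overlapped. Its log2 fold change of 0.07 ± 0.21 turned to -0.03 and -0.09 without control replicate 1 or GNE-987 replicate 1, and was below 0 under each of the 3 scalings just named and under quantile normalization. CHPF2 and other genes on the opposite strand cover 28.4% of its exon bases.

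SMARCE1, which encodes the HMG-box subunit BAF57 of the core, was below the limit of testing. It was listed at 0.365 and 0.380 FPKM in control and 0.0448 and 0.0243 FPKM after GNE-987, from 157, 157, 7 and 4 reads. Of its coding bases, 70.5% lie in exons of another annotated gene on the same strand, ENSG00000264058, which was listed at 0 in all 4 libraries. Reads that fall on both genes cannot be assigned by position alone, and whether the counting left them out was not tested. With no filter on low values, its log2 fold change was -1.82 ± 0.27 (limma adjusted P = 0.0122).

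**Figure D2:**
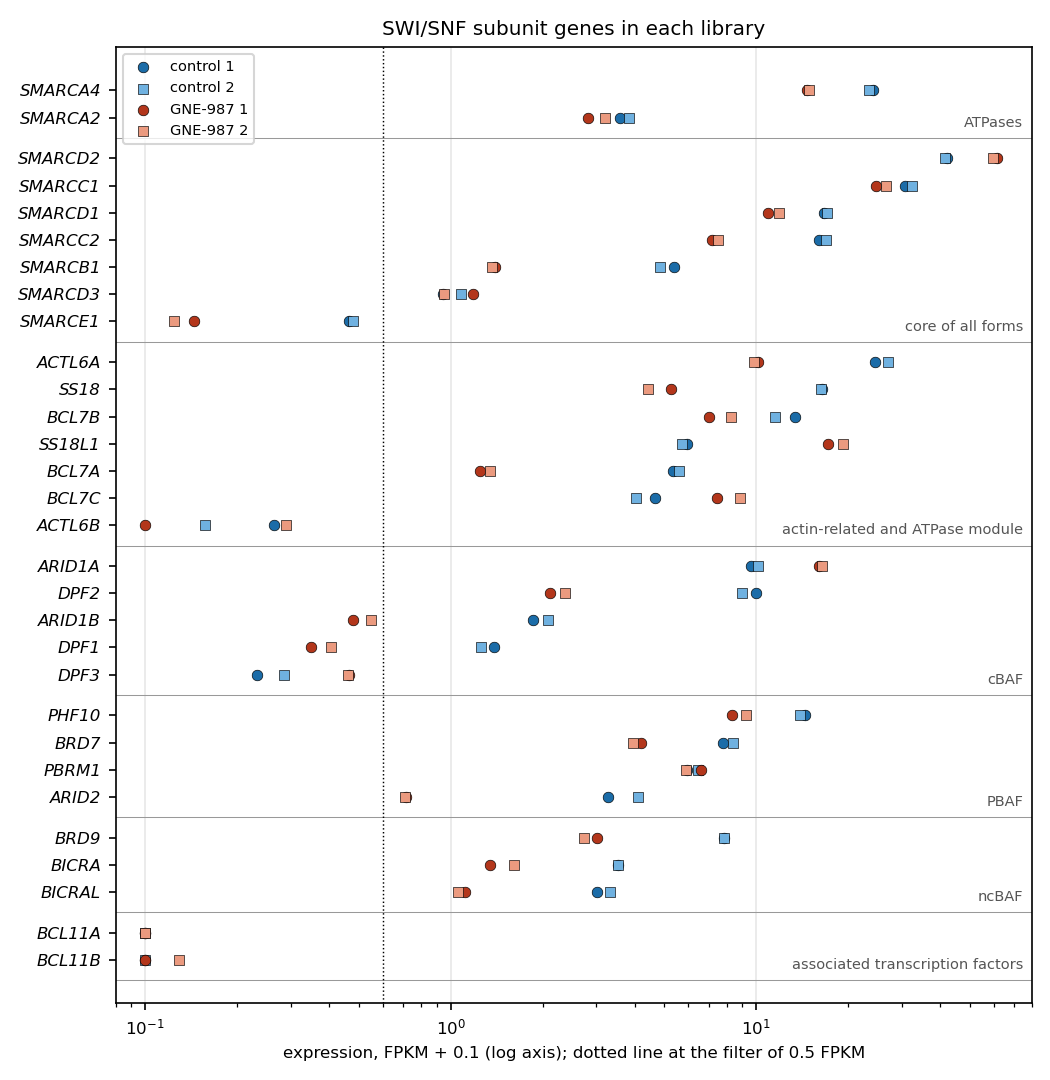
Points show the level of each of the 30 subunit genes in each of the 4 libraries, as FPKM + 0.1 on a log axis, grouped by place in the complex and ordered by control mean within each group. A group label does not mean that every form holds each gene of the group. SMARCD2 lies farthest right in every library, SS18L1 and SS18 exchange places between the groups, and 5 genes lie left of the dotted line that marks the filter of 0.5 FPKM.

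In the actin-related and ATPase module, 3 of 6 tested genes fell (24.9% of all tested genes) and SS18L1 rose (33.6% of all tested genes), the latter reversing to -0.20 on the log2 scale under scaling to GAPDH. ACTL6A (BAF53a), the actin-related subunit of proliferating cells, fell from 24.4 and 26.9 FPKM in control to 10.02 and 9.71 FPKM after GNE-987. Its log2 fold change was -1.37 ± 0.07 (limma adjusted P = 0.000385). ACTL6B, its neuronal paralog, was covered by at most 9 reads in any library and was not tested.

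SS18 and SS18L1 encode paralogous subunits of the ATPase module, the SS18 protein being the partner in the SS18-SSX fusion of synovial sarcoma and SS18L1 (CREST) being known from neurons. In hg38, SS18 lies at chr18:26016253-26091217, minus strand, and SS18L1 at chr20:62143769-62182514, plus strand. SS18 was at 16.4 and 16.1 FPKM in control and at 5.16 and 4.33 FPKM after GNE-987. SS18L1 was at 5.86 and 5.62 FPKM in control and at 17.1 and 19.2 FPKM after GNE-987. The groups did not overlap for either gene, and SS18 was the higher of the pair in both control libraries and the lower in both GNE-987 libraries. SS18 fell by 1.76 on the log2 scale (SE 0.11, limma adjusted P = 0.000513). SS18L1 rose by 1.64 on the log2 scale (SE 0.08, limma adjusted P = 0.000369), which became 0.87 under scaling to reads on genes, 0.30 under scaling to the protein-coding total and -0.20 under scaling to GAPDH. The ratio of SS18 to SS18L1, which no scaling of whole libraries can change, was 2.80 and 2.88 in control and 0.302 and 0.226 after GNE-987. The summed FPKM of the pair was 22.2 and 21.8 in control and 22.2 and 23.5 after GNE-987. Unlike the ratio, this sum holds for the deposited scaling only, and the other scalings would lower it after GNE-987 relative to control. SS18L1 shares 17.8% of its exon bases with an opposite-strand RNA, ENSG00000289537, that is not among the genes analysed here.

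The promoters of this pair are shown because SS18L1 was the single gene called higher and its paralog was called lower. Each is the 250 bases before the RefSeq start in build GRCh38.p14, 5′ to 3′ on the strand of the gene, with matches to 5 searched motifs in capitals. The SS18 promoter lies at chr18:26091220-26091469 on the minus strand and the SS18L1 promoter at chr20:62143519-62143768 on the plus strand.
SS18: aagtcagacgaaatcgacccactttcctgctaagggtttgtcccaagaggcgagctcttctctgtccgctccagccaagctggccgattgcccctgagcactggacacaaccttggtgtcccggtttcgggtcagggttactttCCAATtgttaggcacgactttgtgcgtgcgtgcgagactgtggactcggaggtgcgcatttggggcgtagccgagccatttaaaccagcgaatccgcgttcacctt
SS18L1: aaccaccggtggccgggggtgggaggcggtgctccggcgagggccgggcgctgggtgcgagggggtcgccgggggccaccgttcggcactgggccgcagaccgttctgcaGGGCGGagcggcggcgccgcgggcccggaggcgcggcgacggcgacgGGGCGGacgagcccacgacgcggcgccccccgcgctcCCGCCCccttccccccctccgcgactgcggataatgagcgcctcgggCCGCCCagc
The capitals mark 1 match to CCAAT in SS18 and 4 matches to GGGCGG (read as CCGCCC on the other strand) in SS18L1. The base composition also differed, with 56.4% G and C in SS18 and 81.6% in SS18L1, where the median over all 35116 RefSeq promoters was 58.0%. Each motif was searched on both strands, and the matches marked do not overlap. The E-box CACGTG was held by 6.30% of all promoters and by 2 of the 26 subunit genes with a RefSeq promoter. The CCAAT box was held by 32.0% of all promoters and by 12 of the 26. The GC box GGGCGG was held by 42.6% of all promoters and by 16 of the 26. The TATA box TATAAA was held by 10.7% and by 1 of the 26, and the ETS core CGGAAG by 16.5% and by 4 of the 26. A match is a stretch of letters only and does not show that a factor binds there.

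The BCL7 genes encode small accessory subunits of the ATPase module, of which BCL7A is recurrently altered in lymphoma. BCL7A fell from 5.23 and 5.50 FPKM in control to 1.15 and 1.24 FPKM after GNE-987 (log2 fold change -2.08 ± 0.10 SE, limma adjusted P = 0.000368). BCL7B was at 13.3 and 11.4 FPKM in control and 6.89 and 8.19 FPKM after GNE-987, a log2 fold change of -0.70 ± 0.13 that was not called, although it was at -1.47 to -2.53 and called lower under the 3 scalings and limma-voom. BCL7C was at 4.56 and 3.94 FPKM in control and 7.34 and 8.76 FPKM after GNE-987. The 3 paralogs thus differed in direction, and BCL7C was the lowest of them in both control libraries and level with BCL7B after GNE-987. BCL7C missed the fold required at a log2 fold change of 0.90 ± 0.13, passed it without control replicate 1 (1.01) or GNE-987 replicate 1 (1.03), and turned to -0.42 and -0.92 under scaling to the protein-coding total and to GAPDH.

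Of the cBAF subunits, 3 of 4 tested genes fell, beside the same 24.9% of all tested genes. DPF1 and ARID1B, which are among the 3, passed the filter only through their control level. The same filter left out DPF3, which was higher after GNE-987. DPF2 (BAF45d; chr11:65333843-65354262, plus strand, hg38), the PHD-finger subunit that marks cBAF, fell from 9.93 and 8.91 FPKM in control to 2.02 and 2.26 FPKM after GNE-987. Its log2 fold change of -2.09 ± 0.11 (limma adjusted P = 0.000385) was within its standard error of that of BCL7A. Its paralog DPF1, known from neurons, fell from 1.28 and 1.16 FPKM to 0.249 and 0.307 FPKM, values that rest on 10 and 13 reads after GNE-987. DPF1 passed the filter through its control level, its mean after GNE-987 being 0.278 FPKM. With a minimum mean of 1 FPKM it was not tested, and 11 subunit genes were called lower. DPF3, the third paralog, was below the limit of testing. It was at 0.132 and 0.184 FPKM in control and 0.365 and 0.362 FPKM after GNE-987.

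ARID1A and ARID1B encode the DNA-binding scaffold subunits of cBAF, and a complex holds either of them. In hg38, ARID1A lies at chr1:26693236-26782104, plus strand, and ARID1B at chr6:156776020-157210779, plus strand. ARID1A, among the most often mutated chromatin genes in cancer, was at 9.55 and 10.02 FPKM in control and 16.0 and 16.3 FPKM after GNE-987. ARID1B fell from 1.75 and 1.98 FPKM to 0.377 and 0.446 FPKM, a log2 fold change of -1.94 ± 0.19 (limma adjusted P = 0.00159). The groups did not overlap for either gene, and the paralogs lay on opposite sides of 0. The log2 fold change of ARID1A, 0.72 ± 0.06 (limma adjusted P = 0.000946), was below the fold required and turned to -0.05, -0.62 and -1.12 under scaling to reads on genes, to the protein-coding total and to GAPDH. Whole reads for ARID1B were obtained at a length of 44677 bases, so its FPKM is low for its 1803 and 1952 control reads. ARID1B passed the filter of 0.5 FPKM through its control level, its mean after GNE-987 being 0.412 FPKM.

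Of the PBAF subunits, ARID2 (chr12:45729706-45908040, plus strand, hg38) alone was called in the deposited scaling, 1 of 4 tested, where 24.9% of all tested genes were called lower. ARID2 (BAF200), the ARID subunit that takes the place of ARID1 proteins in PBAF, fell from 3.17 and 3.99 FPKM in control to 0.612 and 0.607 FPKM after GNE-987. Its log2 fold change of -2.37 ± 0.17 (limma adjusted P = 0.00076) was the lowest among the 25 in the deposited scaling, and it rests on 62 and 65 reads after GNE-987. PBRM1 (BAF180), the polybromo subunit often mutated in renal cancer, was at 5.84 and 6.34 FPKM and at 6.48 and 5.77 FPKM. The groups overlapped for PBRM1, and its log2 fold change of 0.01 ± 0.10 turned to -0.76, -1.32 and -1.81 under scaling to reads on genes, to the protein-coding total and to GAPDH. ARID2 and PBRM1, both of PBAF, thus lay far apart, a difference that was not tested.

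BRD7 and PHF10 complete the PBAF list. BRD7, a bromodomain subunit, was the gene nearest to the threshold, at 7.72 and 8.28 FPKM in control and 4.10 and 3.84 FPKM after GNE-987. Its log2 fold change was -0.99 ± 0.08 (limma adjusted P = 0.00106), just short of the -1 required. It passed the threshold without control replicate 1 (-1.04) or GNE-987 replicate 1 (-1.04), with quantile normalization (-1.02), with a pseudocount of 0.01 (-1.01), and at -1.75 to -2.81 under the 3 scalings and limma-voom. Exons of genes on the opposite strand, nearly all of ADCY7, cover 41.9% of its exon bases, and ADCY7 was at 6.46 to 7.38 FPKM in the 4 libraries. PHF10 (BAF45a), the PHD-finger subunit of PBAF, was at 14.4 and 13.8 FPKM in control and 8.23 and 9.19 FPKM after GNE-987, a log2 fold change of -0.69 ± 0.08 that was not called, although it was at -1.46 to -2.53 and called lower under the 3 scalings and limma-voom.

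All 3 ncBAF subunit genes fell, where 24.9% of all tested genes and 31.7% of protein-coding genes were called lower. BRD9, the bromodomain subunit that defines ncBAF and on which acute myeloid leukemia cells often depend, was at 7.75 and 7.76 FPKM in control and 2.92 and 2.63 FPKM after GNE-987. BICRA (GLTSCR1), a scaffold that holds BRD9 in the complex, was at 3.43 and 3.42 FPKM and at 1.24 and 1.51 FPKM. BICRAL (GLTSCR1L), its paralog, was at 2.91 and 3.23 FPKM and at 1.01 and 0.960 FPKM. The GNE-987 libraries were below the control libraries for each gene. Their log2 fold changes were -1.45 ± 0.09 for BRD9, -1.26 ± 0.14 for BICRA and -1.54 ± 0.13 for BICRAL (limma adjusted P = 0.000543, 0.00225 and 0.00109). Summed over the 3 genes, ncBAF subunit RNA was at 14.1 and 14.4 FPKM in control and 5.18 and 5.10 FPKM after GNE-987. BICRA was no longer called with a pseudocount of 1 (-0.90) or when the fold itself was tested against 2.

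BCL11A and BCL11B, zinc-finger factors of lymphoid development that associate with the complex, were not tested. BCL11A was listed at 0 in all 4 libraries, and BCL11B was at 0 except for 2 reads in a single GNE-987 library.

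Paralogs were then compared with each other inside each library. A scaling of the whole library cancels there for raw ratios, but not fully once 0.1 is added to each FPKM. Of 16 pairs listed, 13 had both genes above the limit of testing. On the log2(FPKM + 0.1) scale the groups did not overlap for any of the 13, and in 7 pairs the ratio moved by more than 2-fold. Of single tested genes, 89.1% did not overlap, and 24.9% were called lower and 33.6% higher past 2-fold. Those shares are of levels of single genes, and no share was computed over ratios of other gene pairs. Several of the 13 pairs share a gene, so the pairs are not independent. With 2 libraries against 2, the two-sided exact permutation test can give no p below 0.333, which it gave for all 13 pairs, so this test cannot pass its threshold for any pair. The ratio of SS18 to SS18L1 fell by 3.40 on the log2 scale. The ratio of ARID1A to ARID2 rose by 3.09 and that of ARID1A to ARID1B by 2.66, and under quantile normalization these rose by 4.47 and 3.93, against a change of -3.41 for SS18 to SS18L1. The raw ratio of ARID1A to ARID1B was 5.45 and 5.07 in control and 42.4 and 36.5 after GNE-987, the last values resting on 141 and 176 reads of ARID1B. The log2 ratios of BCL7B to BCL7C, DPF2 to PHF10, BCL7A to BCL7B and SMARCD1 to SMARCD2 changed by -1.61, -1.396, -1.38 and -1.10.

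The other 6 pairs moved by less. The ratio of SMARCC1 to SMARCC2 rose by 0.87 and that of BICRA to BICRAL by 0.28. The ratios of SMARCD1 to SMARCD3, BRD9 to BRD7, SMARCA4 to SMARCA2 and DPF2 to DPF1 changed by -0.63, -0.46, -0.38 and -0.28, the first and last of which turned to 0.47 and 0.75 under quantile normalization. For DPF2 and DPF1 the raw FPKM ratios were 7.72 and 7.69 in control and 8.09 and 7.37 after GNE-987 and did overlap, so that the separation of that pair came with the pseudocount.

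**Figure D3:**
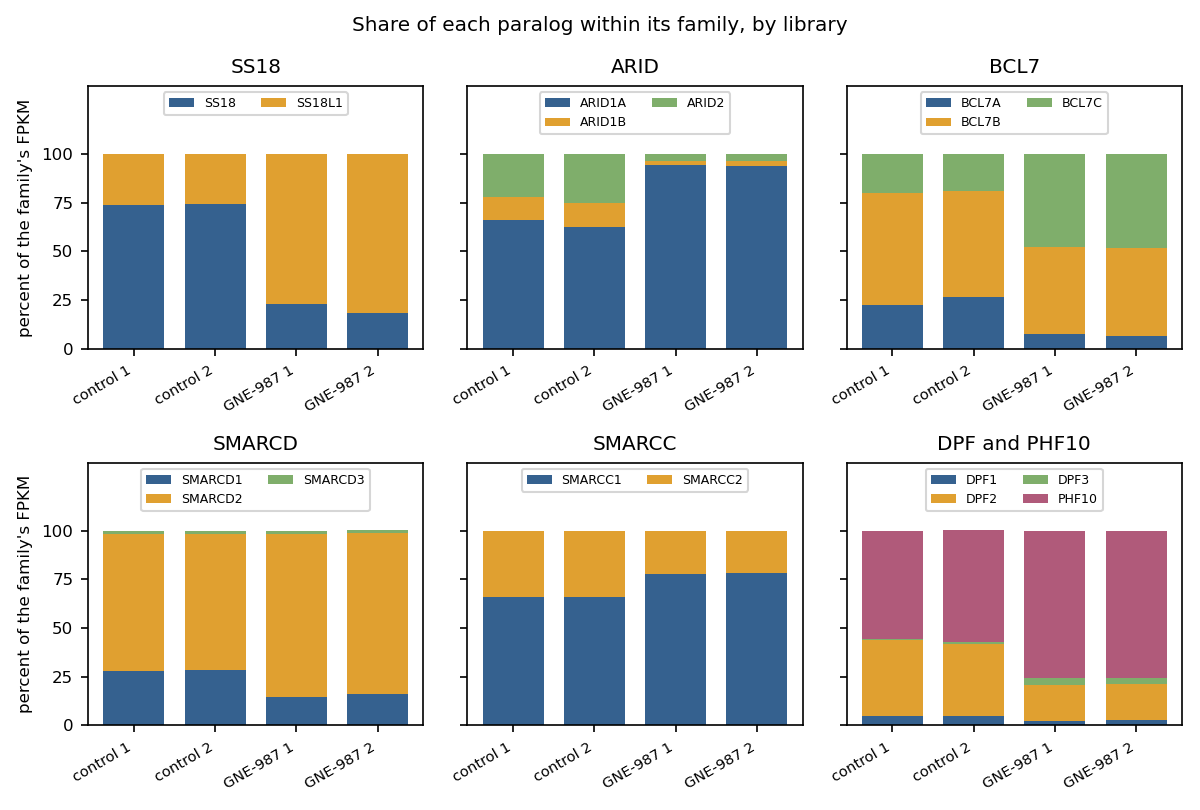
Bars show the percent of each family's summed FPKM held by each paralog in each of the 4 libraries, one bar per library. SS18L1 goes from 26.3% and 25.8% in control to 76.8% and 81.5% after GNE-987, ARID1A from 66.0% and 62.7% to 94.2% and 93.9%, and BCL7C from 19.8% and 18.9% to 47.7% and 48.2%.

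The shares within families restate these ratios as make-up. SS18L1 held 26.1% of its pair on average in the control group and 79.2% in the GNE-987 group. ARID1A held 64.3% of the summed FPKM of ARID1A, ARID1B and ARID2 in the control group and 94.1% in the GNE-987 group. The sum itself, which depends on the scaling of the libraries, was 14.5 and 16.0 FPKM in control and 16.99 and 17.4 FPKM after GNE-987. BCL7C went from 19.4% to 47.9% of the BCL7 genes. Among the PHD-finger genes, PHF10 held 56.7% in the control group and 75.8% in the GNE-987 group, and DPF2 held 37.8% and 18.6%. These are shares of RNA and say nothing of protein in the complex, and they compare genes through annotated lengths that may not be the lengths transcribed.

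The order of levels changed accordingly. In the control group the 4 highest genes were SMARCD2, SMARCC1, ACTL6A and SMARCA4, none of which overlapped its neighbour in that order. SMARCD1, SMARCC2 and SS18 followed between 16.0 and 16.9 FPKM and overlapped in sequence. In the GNE-987 group the 4 highest were SMARCD2, SMARCC1, SS18L1 and ARID1A, again without overlap between neighbours. SS18L1 had been number 15 and ARID1A number 10 in the control group. Summed over all 30 genes, SWI/SNF RNA was at 277 and 279 FPKM in control and 215 and 221 FPKM after GNE-987. As a share of reads on genes it was 0.273% and 0.269% in control and 0.121% and 0.125% after GNE-987.

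**Figure D4:**
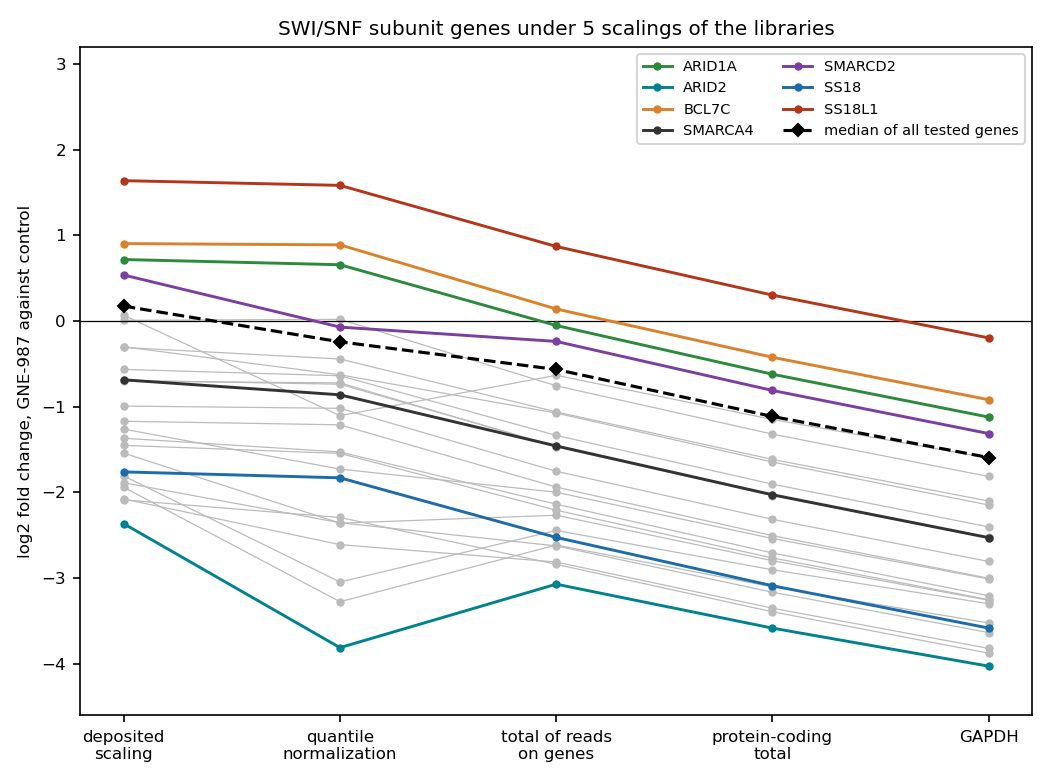
Lines join the log2 fold change (GNE-987 against control) of each of the 25 tested subunit genes under 5 scalings of the libraries, with 7 genes in color and the median of all tested genes as a dashed line. Every line ends lower at GAPDH than at the deposited scaling. At GAPDH the median is at -1.59 and SS18L1 at -0.20, and SS18L1 lies above the median and SS18 below it under each of the 5.

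The subunit genes were set beside genes of other ATP-dependent remodelers, the ISWI, CHD and NuRD, and INO80, SRCAP and TIP60 families, which slide nucleosomes or exchange histone variants. Of the 61 such genes tested, 31 were called lower (50.8%) and 4 higher, with a median log2 fold change of -1.02 against -0.99 for the SWI/SNF genes. The counts lower were 6 of 13 for ISWI, 5 of 17 for CHD and NuRD and 20 of 31 for INO80, SRCAP and TIP60. The share of SWI/SNF genes called lower, 48.0%, was thus close to that of the other remodelers, and no test of the difference was made. YEATS4, MRGBP and ACTR5 were the lowest of them at -2.80, -2.70 and -2.44, and CHD5, GATAD2B and TFPT the highest at 4.72, 2.16 and 1.69. CHD5 was covered by 7 and 6 reads in control and by 298 and 263 reads after GNE-987.

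The BET genes BRD2 and BRD3 were read from the same table. BRD3 was at 3.69 and 3.28 FPKM in control and 1.77 and 1.83 FPKM after GNE-987. BRD2 was at 34.4 and 36.5 FPKM in control and 120 and 120 FPKM after GNE-987. GNE-987 is directed at the proteins, so these RNA levels do not check the treatment. GAPDH, often used as a reference gene, was at 398 and 432 FPKM in control and 1501 and 1499 FPKM after GNE-987.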

How the data were processed

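Total RNA from 4 libraries was prepared with the TruSeq RNA kit. The submitters' processing notes name HISAT2 2.0.5 and the build hg38, and the study's methods name DESeq2 for the authors' own differential expression, which was not used here. The counting program and annotation are not given in the sources used here, nor whether counting used strand. The authors deposited FPKM per Ensembl gene, of which 99.1% of identifiers are in GENCODE release 44. Gene positions and symbols were taken from that release.

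FPKM steps give reads per gene: for all 32895 genes above 0 a length was found at which the 4 values were whole within 0.01 reads, 53.0% of them at the GENCODE exon length. Tested on simulated data, this returned the right reads for 98.0% of genes. Shared exon bases were counted on GENCODE.

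The test was limma (version 3.58.1, R 4.3.3) on log2(FPKM + 0.1) for genes whose mean reached 0.5 FPKM, two-sided, with an intensity trend and Benjamini-Hochberg adjustment over all 16668 genes. A fold change is on that scale and understates the change of low genes. Genes were called at an unadjusted P below 0.05 and a fold change above 2 or below 0.5, the thresholds of the study's methods. Tested on simulated data with 200 changed genes, the fit recovered 95.5% of them and called 1.35% of unchanged genes. In that simulation each planted change was past the fold threshold and library depth was divided out exactly. The same spread setting between replicates was used for all genes, and far fewer genes were changed than were called in the data. These shares therefore do not cover the choice of scaling and are not error rates for these libraries. All 30 subunit genes were named by rule, and outside them the markers, BRD2, BRD3, GAPDH, the 3 called remodeler genes with the largest change in each direction and overlapping genes. A further gene of that rule is not reported here. The subunit genes, the lists and the tests were chosen with earlier results of these data known. Promoters came from RefSeq (GRCh38.p14), which matched 26 of 30 subunit genes. Alternatives covered scaling, pseudocount, filter, threshold, limma-voom on the recovered reads, a replicate block and leaving out each library.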

Additional observations from a re-analysis of the deposited data

How the results depend on the processing

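Of the subunit genes, 23 were called lower and 0 higher under scaling to GAPDH, 21 and 0 under a common protein-coding total, 19 and 0 under scaling to reads on genes and 19 and 0 with limma-voom on recovered reads. SMARCA2, SMARCA4, SMARCC1, SMARCD1, BCL7B, BRD7 and PHF10 gained a lower call under all 4 of these. Over all genes, 3031 were then called higher and 9738 lower (GAPDH), 3450 and 8400 (protein-coding total), 6643 lower (reads on genes) and 6759 lower (limma-voom), against 5602 and 4148 as deposited. Of other remodeler genes, 1 was called higher and 56 lower (GAPDH), 1 and 53 (protein-coding total), 2 and 43 (reads on genes) and 2 and 43 (limma-voom). With no filter 8757 genes were called higher. A limma test against a fold change of 2 called 2647 genes and 20 other remodelers lower, and lost SMARCC2 and BICRA. The median subunit gene relative to all genes was at -0.86 with quantile normalization, -0.93 with a pseudocount of 1 and -1.02 with a minimum mean of 1 FPKM. Directions reversed for SMARCD2 (-1.31 with GAPDH, -0.81 with the protein-coding total, -0.24 with reads on genes, -0.070 with quantile normalization, -0.24 with limma-voom), SMARCD3 (-1.60, -1.15, -0.63, -1.10 and -0.69 in that order), ARID1A (-1.12, -0.62, -0.052 and, with limma-voom, -0.052), PBRM1 (-1.81, -1.32, -0.76 and, with limma-voom, -0.77), BCL7C (-0.92 and -0.42 with GAPDH and the protein-coding total) and SS18L1 (-0.20 with GAPDH). SS18L1 was not called at 0.30 with the protein-coding total, 0.87 with reads on genes and 0.88 with limma-voom. With a pseudocount of 1, DPF1 (-0.80) and BICRA (-0.90) were not called. Under quantile normalization the ratio of SMARCD1 to SMARCD3 rose by 0.47 and that of DPF2 to DPF1 by 0.75. Median-ratio scaling and the adjusted P threshold changed no call among the 25 subunit genes. The cause of these changes was not tested, beyond the scaling factor that each scaling applies to a whole library.

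Leaving out each library in turn gave 1 to 2 subunit genes higher, the second being BCL7C without control replicate 1 or GNE-987 replicate 1, and all 12 lower calls held each time. SMARCD3 ranged from -0.090 to 0.225 and PBRM1 from -0.074 to 0.090. Where a group is left with 1 library, that library is assumed to vary like the other group.

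With replicate number as a replicate block, 12 subunit genes were called lower and 1 higher, and over all genes 5667 were higher and 4186 lower. No other call among the subunit genes changed. The deviations of same-numbered libraries correlated at 0.00537 across genes. With 2 libraries per group this cannot decide whether same-numbered libraries were paired. Depth limits the low genes: the called gene with the fewest reads, DPF1, had 10 in a GNE-987 library.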
